A study of Mus musculus with 60 samples.

Results

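The 32 genes described here encode the enzymes and carriers that oxidise fatty acids in mitochondria and peroxisomes, together with 2 enzymes of ketone body metabolism. They were chosen by name, with earlier results of these data known, and all 32 were found among the 54343 gene symbols of each of 4 tables of RNA abundance. By role they comprised 6 genes of fatty acid activation and the carnitine shuttle, 9 of the mitochondrial oxidation spiral, 5 auxiliary enzymes for unsaturated chains, 3 of electron transfer, 7 of peroxisomal oxidation and export, and 2 of ketone bodies. Of these, 31 could be tested in each table. In liver Cpt1b, and in fat Bdh1, reached 1 FPKM in fewer than 5 of 15 libraries; FPKM is a fragment count scaled by transcript length and library size.

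RNA was sequenced in bulk from the liver and the inguinal white fat of mice made obese by diet, which every group shared. The treatment was mGIPR-Ab/P1, an antibody against the receptor of the gut hormone GIP joined to a GLP-1 peptide. In the Glp1r line the groups were Glp1r fl/fl mice given vehicle, Glp1r fl/fl mice given mGIPR-Ab/P1, and Glp1rWnt1-/- mice given vehicle. In the Gipr line they were Gipr fl/fl mice given vehicle, Gipr fl/fl mice given mGIPR-Ab/P1, and GiprSyn-/- mice given vehicle. Each group had 5 libraries per tissue, 60 in all, labelled as biological replicates. Wnt1 and synapsin promoters are commonly used to delete genes in neural lineages and neurons, but the labels do not describe the drivers here, nor the age of the mice, the dose or the duration. Nothing in the labels says more of what separates replicates, so p-values measure the spread between these libraries. No group of knockout mice given the conjugate is among these 60 libraries.

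Long-chain fatty acids are joined to coenzyme A, carried into mitochondria as carnitine esters, and shortened by repeated rounds of dehydrogenation, hydration, oxidation and thiolysis. Peroxisomes shorten very long and branched chains and pass the products on, and the liver turns surplus acetyl-CoA into ketone bodies for other organs. In liver many of these genes are known targets of the fatty acid-sensing nuclear receptor PPAR-alpha; white fat stores fatty acids and oxidises comparatively few.

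The libraries held an estimated 29.9 to 64.4 M fragments (M, 1e6). Hepatocyte and adipocyte marker genes were abundant in the tissue they define. Xist was at most 0.0197 FPKM and Ddx3y at least 7.44 FPKM in all 60 libraries. The deleted receptors gave little check of the labels: Glp1r did not exceed 0.356 FPKM in any liver library, Gipr was at or near 0 there, and in fat Gipr averaged 6.15 ± 1.12 FPKM in Gipr fl/fl vehicle mice and 4.002 ± 1.11 FPKM in GiprSyn-/- mice (log2 fold change -0.53 ± 0.18 SE, limma adjusted p = 0.065). Conjugate-treated Glp1r fl/fl livers were sequenced less deeply than their vehicle group, at 31.7 to 35.5 against 47.5 to 54.8 M fragments. In fat, 6 libraries stood apart by B cell genes, with a mean log2(FPKM + 1) of 9 B cell markers above 5: Glp1r fl/fl vehicle replicate 2, Glp1rWnt1-/- replicates 1 and 3, Gipr fl/fl conjugate replicate 1 and GiprSyn-/- replicates 1 and 5. In Gipr-line liver, 9 libraries stood apart by pancreatic acinar genes, with a mean log2(FPKM + 1) of 11 markers of 2.72 to 9.35 against 0.442 to 0.648 in the other 6: vehicle replicates 1, 2, 4 and 5, conjugate replicates 2 to 5 and GiprSyn-/- replicate 1. Skeletal muscle genes were uneven in the same table, from 0.054 to 4.71. In Glp1r-line liver these levels reached at most 0.495 and 0.0964. In bulk tissue, fewer cells of a type and less RNA per cell cannot be told apart.

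In vehicle-treated floxed mice the members differed in level between the tissues, which are set side by side here without a test because the tables were normalised separately. The peroxisomal thiolase gene Acaa1b averaged 883 ± 112 FPKM in Glp1r fl/fl liver and 43.6 ± 13.2 FPKM in the fat of the same line (SD, n = 5). Bdh1, which interconverts the ketone bodies acetoacetate and beta-hydroxybutyrate, averaged 192 ± 12.9 FPKM in liver and 0.944 ± 1.40 FPKM in fat. Both were higher in liver. Acsl1, which activates long-chain fatty acids, had the opposite order, with 239 ± 11.7 FPKM in liver and 867 ± 209 FPKM in fat. Crat, which moves short acyl groups between coenzyme A and carnitine, was also higher in fat, at 62.3 ± 11.99 against 22.1 ± 2.52 FPKM. The same 4 orders were seen in the Gipr line. In the Glp1r fl/fl vehicle fat, replicate 1 had a mean log2(FPKM + 1) of hepatocyte markers of 5.27, against 1.52 to 2.26 in the others of its group. Its part in the fat values of liver-rich members such as Bdh1 and Acaa1b was not tested.

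Acaa1a and Acaa1b have near-identical coding sequences and both lie on chromosome 9 (GRCm38 chr9:119339676-119350299, plus strand, and chr9:119148023-119157093, minus strand). Their 1275-base coding sequences in GENCODE vM21 differ at 44 positions (96.5% identity), and 24.1% of all stretches of 100 bases are the same in both. Reads from those stretches cannot be assigned to one gene by sequence, so how the authors' counting split them is uncertain. The coding stretch from base 460 to base 549 is shown because it holds 13 of the 44 differences, in capitals, by which reads can be told apart.
Acaa1a: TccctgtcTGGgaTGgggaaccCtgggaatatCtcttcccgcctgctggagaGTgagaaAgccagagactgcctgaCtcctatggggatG
Acaa1b: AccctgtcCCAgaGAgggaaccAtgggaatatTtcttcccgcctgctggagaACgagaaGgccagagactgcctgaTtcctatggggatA

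How Syn-directed loss of GIPR bears on oxidation genes in liver was addressed by GiprSyn-/- against Gipr fl/fl liver, both given vehicle. Of the 31 members tested, 21 fell and none rose at an adjusted p under 0.05 (limma with Benjamini-Hochberg adjustment over 11201 genes). Of all genes tested, 8.92% were lower and 1.44% higher. The members' median log2 fold change was -0.41, and that of all genes -0.11. In 19 of the 21 every knockout library was below every vehicle library, and Crot and Decr2 overlapped. Of all genes 10.6% were separated in this way. Here and below, called members were picked on the same values, so their separation is not a further result beside that share. By step the falling members were 4 of 5 in activation and the shuttle, 4 of 9 in the mitochondrial spiral, 4 of 5 auxiliary enzymes, 1 of 3 in electron transfer, 6 of 7 in peroxisomal oxidation and 2 of 2 ketone body enzymes.

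**Figure D1:**
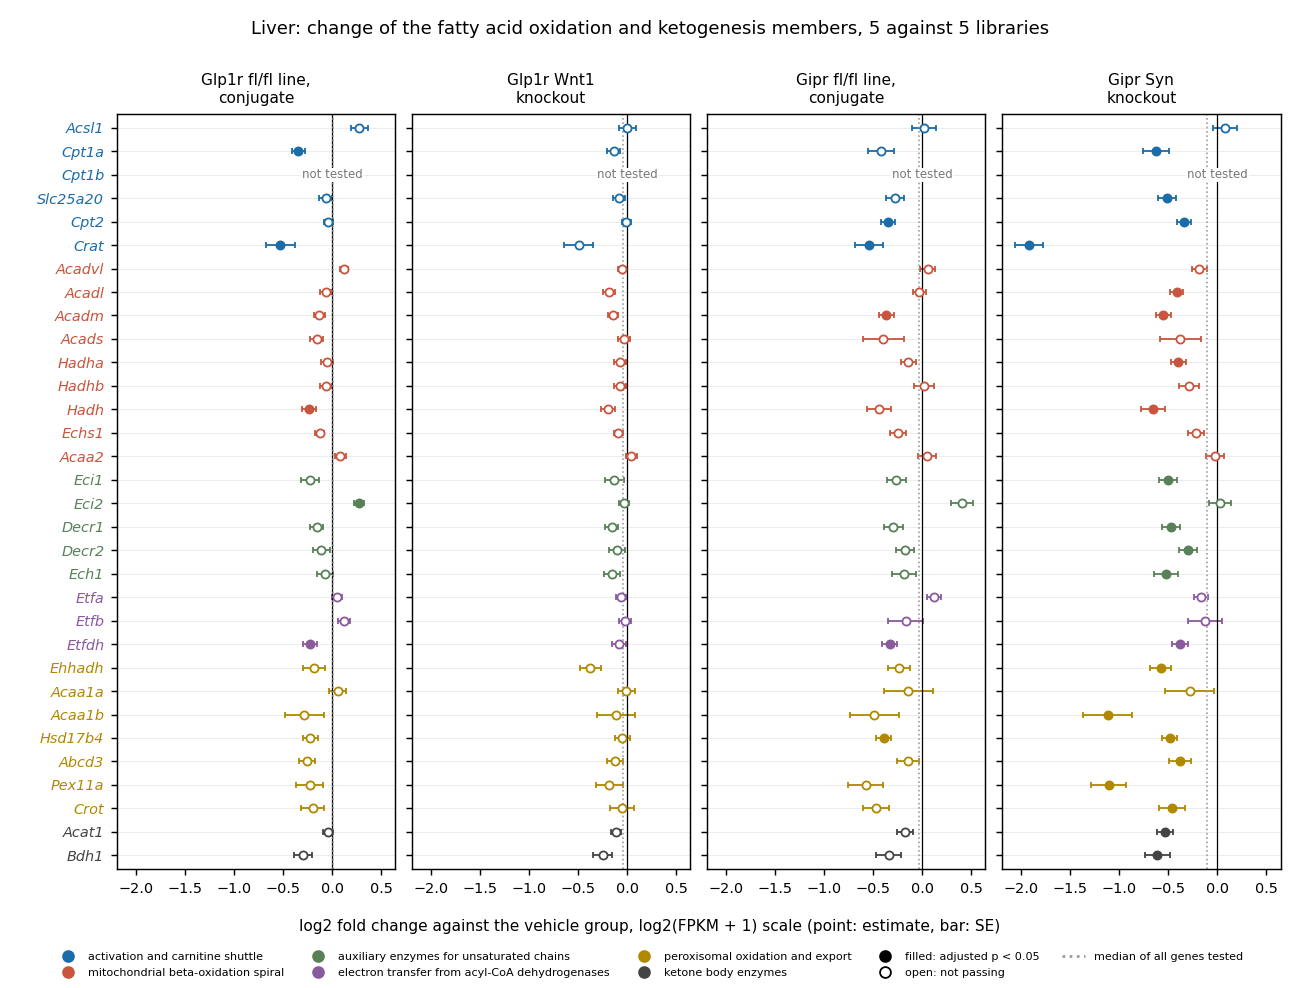
Log2 fold change of each member in liver against the vehicle group of its line (x axis, log2(FPKM + 1) scale; bars, SE; 5 against 5 libraries), grouped and coloured by step on the y axis. Filled points passed an adjusted p under 0.05; in the Gipr Syn knockout 21 of 31 are filled and left of 0, while in the Glp1r Wnt1 knockout none is filled.

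Among activation and shuttle genes, Crat had the largest fall of all members. Its level in the 5 vehicle libraries was 19.4, 24.1, 26.1, 32.6 and 23.2 FPKM, and in the 5 knockout libraries 6.40, 4.30, 7.34, 6.72 and 4.69 FPKM. The highest knockout library was thus below the lowest vehicle library, and the knockout mean was 23.5% of the vehicle mean (log2 fold change -1.92 ± 0.14 SE, adjusted p = 6.0e-06). Cpt1a, which makes the acylcarnitines that enter mitochondria and is regarded as the control point of oxidation, measured 144, 161, 158, 225 and 168 FPKM with vehicle. In the knockout it measured 101, 114, 101, 108 and 124 FPKM, again with no overlap (-0.62 ± 0.13 SE, adjusted p = 0.0078). Slc25a20, the carrier that exchanges acylcarnitines across the inner membrane, fell by 0.51 on the log2 scale, and Cpt2, which re-forms the coenzyme A esters inside, fell by 0.34 (adjusted p = 0.0029 and 0.0078). Acsl1 stood apart from its step: it measured 299.8, 321, 257, 449 and 327 FPKM with vehicle and 315, 325, 345, 397 and 339.9 FPKM in the knockout, with overlapping groups (0.079 ± 0.13 SE, adjusted p = 0.76).

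In the mitochondrial spiral, Hadh, the dehydrogenase for medium and short hydroxyacyl chains, changed most. It measured 221, 276, 267, 269.6 and 289 FPKM with vehicle and 161, 137, 179, 194 and 166 FPKM in the knockout. The groups did not overlap (-0.66 ± 0.12 SE, adjusted p = 0.0032). The medium-chain and long-chain acyl-CoA dehydrogenase genes Acadm and Acadl fell by 0.55 and 0.41 on the log2 scale (adjusted p = 0.00039 and 0.0012), and Hadha, the alpha subunit of the trifunctional protein of the inner membrane, fell by 0.40 (adjusted p = 0.0038). Its partner Hadhb, the beta subunit, lies head to head with it and shares 228 of the 250 bases upstream of the start site; its estimate was -0.29 ± 0.10 (adjusted p = 0.088). The other members that did not pass were Acadvl (-0.18), Acads (-0.38), Echs1 (-0.22) and the thiolase gene Acaa2 (-0.026). All 9 estimates in the step were negative (median -0.38), and no test was made between its members. A uniform sign was not particular to this step. All 17 citric acid cycle genes and all 27 nuclear subunits of oxidative phosphorylation were negative too, and 11 of 21 regulators. The share of negative estimates over all genes was not counted.

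Of the auxiliary enzymes, which reposition or remove double bonds so that unsaturated chains can enter the spiral, Ech1 (-0.52), Eci1 (-0.50), Decr1 (-0.47) and the peroxisomal Decr2 (-0.30) fell, with adjusted p-values from 0.0039 to 0.049. Eci2 did not follow them. It measured 106, 106, 99.8, 126 and 128 FPKM with vehicle and 103, 115, 125, 125 and 108 FPKM in the knockout (0.031 ± 0.11 SE, adjusted p = 0.91). In electron transfer, Etfdh, which passes electrons from the flavoprotein to ubiquinone, fell by 0.38 (adjusted p = 0.0064); the flavoprotein subunit genes Etfa and Etfb had estimates of -0.17 and -0.12 and did not pass (adjusted p = 0.17 and 0.72).

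The peroxisomal step held the next largest changes. Acaa1b measured 687, 819.8, 1069, 1099 and 893 FPKM with vehicle and 461, 273, 598, 552 and 293 FPKM in the knockout, without overlap (-1.12 ± 0.25 SE, adjusted p = 0.01). Pex11a, a membrane protein that promotes division of peroxisomes, measured 73.9, 62.6, 102, 129 and 81.8 FPKM with vehicle and 36.99, 29.1, 53.9, 46.2 and 37.1 FPKM in the knockout (-1.11 ± 0.18 SE, adjusted p = 0.0014). For both, each knockout library was below the lowest vehicle library. Ehhadh, the peroxisomal bifunctional enzyme, fell by 0.58; Hsd17b4, the second bifunctional enzyme, fell by 0.48; Crot, which exports medium chains as carnitine esters, fell by 0.46; and Abcd3, an importer of the peroxisomal membrane, fell by 0.38 (adjusted p = 0.004, 0.001, 0.035 and 0.042). Acaa1a, the near copy of Acaa1b, measured 84.8, 97.2, 103, 121 and 172 FPKM with vehicle and 97.8, 76.2, 101, 96.9 and 92.7 FPKM in the knockout. Its groups overlapped and it did not pass (-0.28 ± 0.25 SE, adjusted p = 0.56); the difference between the copies was not tested.

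Both ketone body enzymes fell. Bdh1 measured 180.0, 198, 209.7, 216 and 227 FPKM with vehicle and 139, 124, 136, 144 and 129.5 FPKM in the knockout, so that the groups did not overlap (-0.61 ± 0.13 SE, adjusted p = 0.0067). Acat1, the mitochondrial thiolase that joins acetyl-CoA units at the entry to ketogenesis, measured 155 to 178 FPKM with vehicle and 97.3 to 132 FPKM in the knockout (-0.53 ± 0.083 SE, adjusted p = 0.00082).

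**Figure D2:**
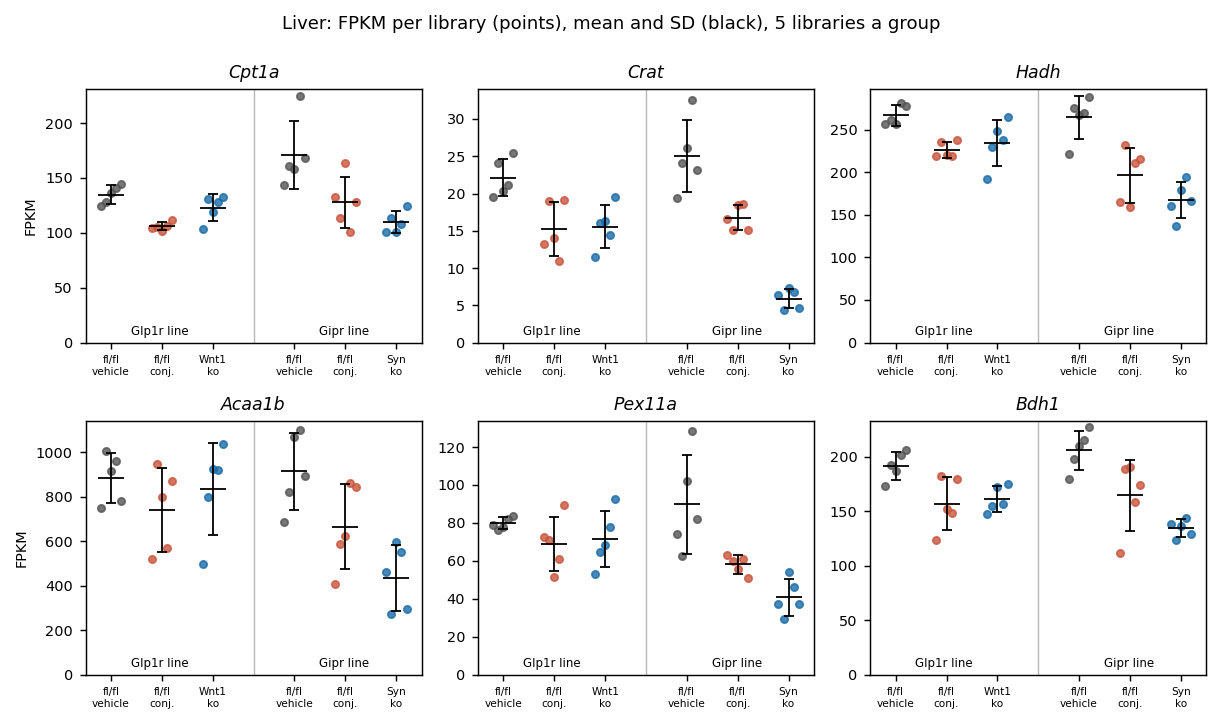
FPKM in each liver library (points; y axis from 0), with mean and SD in black, for 6 members in the 3 groups of each line (x axis; conj., conjugate; ko, knockout given vehicle). In the Gipr line the Syn knockout points lie below all vehicle points for the 6 genes; for Crat they run from 4.30 to 7.34 FPKM.

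Genes of the same and neighbouring pathways were read in the same comparison. Their lists were compiled for this account, with earlier results of these data known, and overlap in function with the members. Of 37 other oxidation and ketogenesis genes tested, 16 fell and 1 rose (median -0.31), led by Abcd2 (-2.09), a peroxisomal importer, and Acacb (-2.07), which makes the malonyl-CoA that inhibits Cpt1a, with Acsl5 (-0.74) also among them. Mlycd, which removes malonyl-CoA, did not pass (-0.31, adjusted p = 0.18). Of 28 known PPAR-alpha targets outside the members, 19 fell and 0 rose (median -0.93), among them Cyp4a14 (-5.42), Acot3 (-3.60), Cidec (-3.32), Cyp4a10 (-2.90) and Pdk4 (-1.27); Fgf21, a hormone of the fasted liver, did not pass (-1.71, adjusted p = 0.088). Of 21 regulators, 3 fell, namely Pparg (-1.15), Rxrg (-0.87) and Ppara itself (-0.47, adjusted p = 0.022); the coactivator gene Ppargc1a did not pass (-0.11, adjusted p = 0.68).

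Of 17 citric acid cycle genes 5 fell, including Cs (-0.62) and Suclg2 (-0.60), and of 22 genes of peroxisome biogenesis and matrix 4 fell, including Pex19 (-0.52) and Pex5 (-0.40). Of 27 nuclear subunits of oxidative phosphorylation only Ndufa10 passed (-0.39; median -0.20, against -0.11 for all genes). The differences between these lists and the members were not tested.

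**Figure D3:**
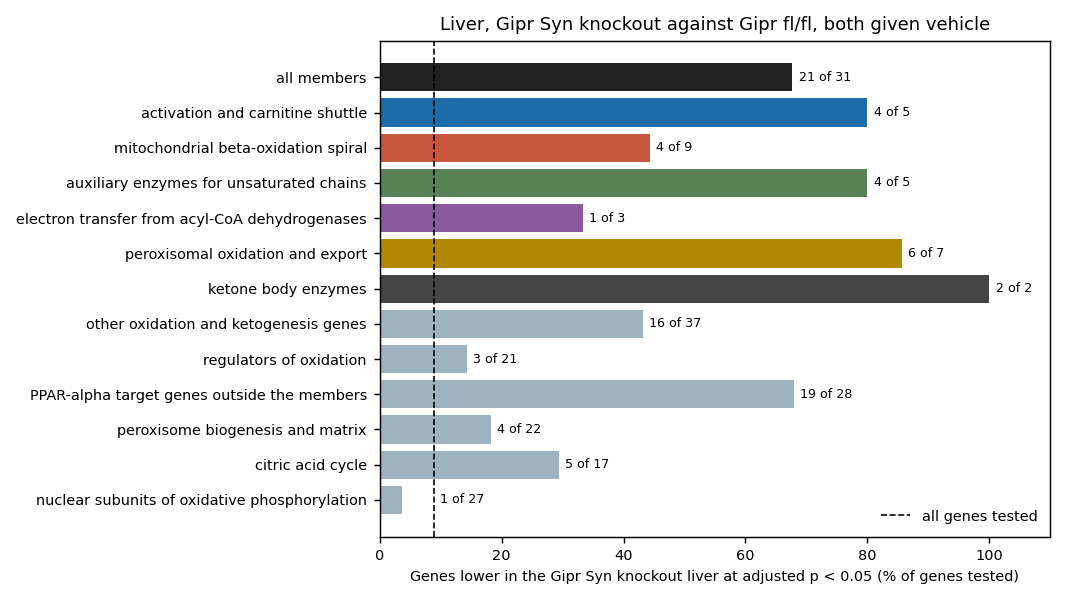
Share of tested genes of each list that was lower in GiprSyn-/- liver than in Gipr fl/fl liver at an adjusted p under 0.05 (x axis, percent of genes tested; counts beside the bars), with all genes as the dashed line. The members stand at 21 of 31, PPAR-alpha targets outside the members at 19 of 28 and oxidative phosphorylation at 1 of 27, against 8.92% of all genes. Members and lists were chosen with earlier results of these data known.

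Scaling mattered for the weaker members. After median-of-ratios scaling, which moved the median of all genes from -0.11 to 0.009, 10 members remained lower: Crat, Acaa1b, Pex11a, Hadh, Cpt1a, Bdh1, Ehhadh, Acadm, Acat1 and Acadl (members' median -0.27). The split of all called genes then became 457 lower and 275 higher, from 999 lower and 161 higher; rescaling to a common sum gave 25 members lower and a split of 1832 against 135. With any 1 library left out 18 to 22 members were called, 18 of them in all 15 such fits. Marker levels that moved with the knockout were given by adipocyte genes (summed 17.3 to 25.8 FPKM in the knockout against 33.9 to 43.2 FPKM; 1 of 4 tested fell), brown and beige adipocyte genes (15.2 to 37.04 against 31.97 to 56.9; 1 of 5 fell) and erythrocyte genes (634 to 859 against 993 to 1678; 0 of 5 passed), with no marker of these lists at 0 in all libraries. Epithelial lists were lower too. The mammary list summed 113 to 158 against 164 to 288 FPKM, and 1 of 2 tested markers fell, with Csn3 and Lalba at 0. Only these 2 of its 8 markers were high enough to test, so the list is no measure of mammary cells here. The cholangiocyte list summed 21.8 to 27.8 against 27.6 to 65.9 FPKM, and 0 of 2 passed. By exact permutation over libraries the p-values were 0.016 for adipocyte, 0.0079 for brown and beige, 0.0079 for erythrocyte, 0.016 for mammary and 0.024 for cholangiocyte genes, and 0.12 to 0.15 after adjustment; their part in the result was not tested. Pancreatic acinar genes had a mean level of 2.08 in the knockout and 5.19 with vehicle, a difference of -3.11 and the largest among the marker lists (summed 38.3 to 3565 against 13.9 to 5339 FPKM; 0 of 11 passed, none at 0; exact permutation p = 0.16). With that level as a term, 19 members were lower and none higher, beside 10.9% of all genes lower, and with the skeletal muscle level 20 were, beside 8.85%; all 19 and all 20 were among the 21. None of 7 hepatocyte markers passed (summed 41958 to 49609.6 against 44743 to 55959.9 FPKM).

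Promoter sequences are shown for Cpt1a, Acaa1b and Pex11a, which are among the 6 members with the largest falls, for Acaa1a, the copy that did not pass, and for Hadhb, whose window is largely that of Hadha. RefSeq on GRCm38.p6 gave the 250 bases upstream of the start site for 26 of the 32 members. For Acaa1a the RefSeq start and its window lie inside the GENCODE gene span given above. Capitals mark AGGTCA, the unit bound by nuclear receptors, and GGGCGG, a GC box bound by Sp factors, on either strand. The windows lie at chr19:3323051-3323300 (Cpt1a, plus strand), chr9:119341044-119341293 (Acaa1a, plus), chr9:119157094-119157343 (Acaa1b, minus), chr7:79743132-79743381 (Pex11a, minus) and chr5:30155003-30155252 (Hadhb, plus).
Cpt1a: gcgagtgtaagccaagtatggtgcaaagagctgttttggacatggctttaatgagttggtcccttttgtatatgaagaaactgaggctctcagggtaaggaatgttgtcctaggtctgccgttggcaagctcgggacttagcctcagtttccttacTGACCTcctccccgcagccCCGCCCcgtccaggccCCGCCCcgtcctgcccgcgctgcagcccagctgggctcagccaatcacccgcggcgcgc
Acaa1a: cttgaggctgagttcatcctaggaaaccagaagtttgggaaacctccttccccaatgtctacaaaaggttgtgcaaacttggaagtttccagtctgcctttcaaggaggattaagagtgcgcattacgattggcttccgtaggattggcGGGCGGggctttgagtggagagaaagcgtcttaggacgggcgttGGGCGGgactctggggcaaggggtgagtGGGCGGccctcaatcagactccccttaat
Acaa1b: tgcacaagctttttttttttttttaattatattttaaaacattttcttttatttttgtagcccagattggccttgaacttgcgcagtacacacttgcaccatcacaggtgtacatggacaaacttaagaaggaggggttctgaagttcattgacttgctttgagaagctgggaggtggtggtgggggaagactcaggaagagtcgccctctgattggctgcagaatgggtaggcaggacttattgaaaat
Pex11a: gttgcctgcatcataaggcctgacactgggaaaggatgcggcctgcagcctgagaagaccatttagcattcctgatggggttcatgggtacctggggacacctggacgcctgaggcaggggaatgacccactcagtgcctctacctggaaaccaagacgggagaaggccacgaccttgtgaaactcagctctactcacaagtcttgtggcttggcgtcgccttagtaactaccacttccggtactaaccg
Hadhb: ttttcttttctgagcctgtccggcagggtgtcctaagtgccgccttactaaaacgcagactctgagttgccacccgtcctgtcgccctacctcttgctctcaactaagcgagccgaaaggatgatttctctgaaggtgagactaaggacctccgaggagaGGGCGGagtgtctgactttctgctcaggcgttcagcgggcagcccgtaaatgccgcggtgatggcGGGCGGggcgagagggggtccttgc

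The 2 thiolase genes, so alike in their coding sequence, differ here: Acaa1a holds 3 GC boxes in a window of 53.6% G and C, and Acaa1b none in one of 41.6%. GGGCGG occurred in 17 of 26 members and in 35.4% of 27025 genes, a gene being counted where any of its windows held the motif. AGGTCA occurred in 4 members, Cpt1a, Acadvl, Acadm and Echs1, and in 15.8% of all genes. The direct repeat of AGGTCA with 1 base of any kind between, which PPAR-alpha binds in variant forms, was in none of the 26 members and in 0.0407% of genes. CCAAT occurred in 11 members and 37.5% of genes, and TATAAA in no member and 14.3% of genes. These are matches of letters in a short window and say nothing on binding.

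In the liver of the same line, the conjugate was compared with vehicle in Gipr fl/fl mice. Of 31 members 5 fell and none rose, where 3.17% of all genes were lower and 1.17% higher (limma, 11201 genes). Crat measured 16.5, 15.1, 18.5, 18.5 and 15.1 FPKM with the conjugate, all below the vehicle range of 19.4 to 32.6 FPKM (-0.54 ± 0.14 SE, adjusted p = 0.047). Hsd17b4 measured 207, 222, 234, 242 and 210.4 FPKM with vehicle and 185, 172, 157, 160.4 and 172 FPKM with the conjugate (-0.39 ± 0.077 SE, adjusted p = 0.013). Acadm measured 237, 243, 233, 258 and 255 FPKM with vehicle and 196, 201, 192, 182 and 179 FPKM with the conjugate (-0.37 ± 0.076 SE, adjusted p = 0.016). In none of these 3 did the groups overlap, as in 3.57% of all genes. The 2 others were Cpt2, at 50.7, 52.5, 48.5, 54.3 and 54.1 FPKM with the conjugate (-0.35 ± 0.072 SE, adjusted p = 0.018), and Etfdh, at 119, 112, 98.6, 102 and 105 FPKM (-0.33 ± 0.079 SE, adjusted p = 0.032). Their vehicle libraries ran from 58.9 to 72.1 and from 125 to 143 FPKM and did not overlap with these. Eci2 stood against its step at 158, 164, 146, 169.8 and 115 FPKM, but did not pass (0.41 ± 0.11 SE, adjusted p = 0.054).

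This result was sensitive to single libraries and to scaling: no member was called after median-of-ratios scaling, and only Hsd17b4 was called in all 15 fits with 1 library left out. The count was 1 without vehicle replicate 4, 2 without conjugate replicate 4, and 3 without conjugate replicate 2 or 3 or vehicle replicate 2, 3 or 5. Among the neighbouring lists 3 of 37 oxidation genes, 5 of 28 PPAR-alpha targets and 3 of 17 citric acid cycle genes fell, the last being Suclg2 (-0.44), Dlst (-0.40) and Cs (-0.38). Ppara (-0.16), Ppargc1a (-0.15), Pdk4 (-0.64), Fgf21 (-0.17) and Mlycd (-0.11) did not pass. Erythrocyte genes summed 406 to 1169.9 FPKM with the conjugate against 993 to 1678 FPKM (3 of 5 fell, none at 0; exact permutation p = 0.024), and hepatocyte genes 54193 to 63597 against 44743 to 55959.9 FPKM (1 of 7 rose, none at 0; exact permutation p = 0.04), with adjusted values of 0.15 and 0.24; their part in the result was not tested. With the pancreatic acinar level as a term the same 5 members were lower and Eci2 was higher, and with the skeletal muscle level 4 of the 5 were lower, without Crat.

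The conjugate and knockout groups of this line were also compared with each other. Crat was higher with the conjugate by 1.38 ± 0.14 SE (adjusted p = 0.00026), so the fall in the knockout went beyond that under the conjugate. Acadl measured 111, 119, 127, 119 and 105 FPKM with the conjugate and 82.4, 86.9, 94.5, 90.2 and 89.4 FPKM in the knockout (0.38 ± 0.067 SE, adjusted p = 0.011), and Acat1 measured 158, 151, 149, 150.0 and 143 FPKM against 117, 113, 129.7, 132 and 97.3 FPKM (0.36 ± 0.083 SE, adjusted p = 0.048). Groups did not overlap for the 3, as in 3.67% of all genes. They were all the members higher, with none lower, beside 1.08% and 0.232% of all genes. Without conjugate replicate 1 the count was 6. The mean level of acinar genes was 2.92 higher with the conjugate than in the knockout (2.08), and with their level or the skeletal muscle level as a term Acadl and Crat passed and Acat1 did not. After median-of-ratios scaling Crat alone passed, and the called genes split into 36 lower and 50 higher, from 26 and 121. Both comparisons with vehicle share the vehicle libraries, so their likeness is not a separate result.

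In the Glp1r line, 4 members were lower and 1 higher in liver with the conjugate, where 4.69% of all genes were lower and 5.68% higher (limma, 10858 genes). Sequencing depth also differed between these groups, and the fit with depth as a term is given below. Cpt1a measured 124, 128, 136, 141 and 145 FPKM with vehicle and 104, 105, 102, 106 and 112 FPKM with the conjugate, without overlap, as in 4.02% of all genes in this direction (-0.34 ± 0.067 SE, adjusted p = 0.0083). Crat measured 19.6, 24.1, 20.4, 21.2 and 25.4 FPKM with vehicle and 13.2, 19.02, 14.1, 10.97 and 19.1 FPKM with the conjugate, again without overlap (-0.53 ± 0.15 SE, adjusted p = 0.036). Hadh measured 256, 262, 257, 281 and 278 FPKM with vehicle and 219, 235, 220.1, 219.6 and 238 FPKM with the conjugate (-0.24 ± 0.071 SE, adjusted p = 0.048). Its groups did not overlap, whereas those of Etfdh did. Etfdh measured 109, 127, 119.9, 129 and 123 FPKM with vehicle and 93.1, 124, 95.8, 101 and 106 FPKM with the conjugate (-0.23 ± 0.07 SE, adjusted p = 0.049). Eci2 rose, from 125, 109.7, 124, 116 and 111 FPKM to 143, 148, 139, 131 and 149 FPKM, all conjugate libraries being above the vehicle libraries, as in 5.14% of all genes (0.28 ± 0.053 SE, adjusted p = 0.0083). Acsl1 was also against its step, at 247, 218, 245, 242 and 243 FPKM with vehicle and 355, 289, 237, 284 and 297 FPKM with the conjugate, and did not pass (0.28 ± 0.088 SE, adjusted p = 0.055).

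Eci2 encodes an isomerase that moves double bonds of unsaturated chains and is found in mitochondria and peroxisomes. It was higher with the conjugate than in Glp1rWnt1-/- mice as well (0.31 ± 0.053 SE, adjusted p = 0.01), as was Acadvl, the very-long-chain dehydrogenase gene (0.17 ± 0.042 SE, adjusted p = 0.035), beside 4.14% of all genes higher and 0.903% lower; neither overlapped, as in 4.58% of genes. That comparison called 1 member without conjugate replicate 1 or 5, vehicle replicate 3 or 4, or knockout replicate 2, 3 or 4. Median-of-ratios scaling there split the called genes into 197 lower and 175 higher, from 98 and 449, and called Eci2 higher and Cpt1a lower. Against vehicle, rescaling to a common sum gave 469 lower and 336 higher genes, from 509 and 617. Cpt1a and Eci2 were called against vehicle in each of the 15 fits with 1 library left out; the count of all members was 2 without conjugate replicate 1 or 4 or vehicle replicate 2, 3, 4 or 5, and 3 without conjugate replicate 3 or knockout replicate 2, 3 or 4. With sequencing depth as a term no member was called in either comparison; depth followed the treatment in this table, so that depth and treatment cannot be told apart here. Of neighbouring genes, Acacb (-1.24) and Acsl5 (-0.65) fell among 6 of 36 oxidation genes, of which 1 rose, and 8 of 28 PPAR-alpha targets fell and 2 rose, the falls including Pdk4 (-1.08), Fgf21 (-1.21) and Cidec (-2.07). Of 21 regulators of oxidation 3 rose and none fell: Nrf1 (0.30), Rxrb (0.21) and Rxra (0.17), the last pair encoding partners of nuclear receptors. Ppara (-0.12, adjusted p = 0.43) did not pass, nor did Ppargc1a (-0.038) or Mlycd (0.10). Erythrocyte genes summed 475 to 889 FPKM with the conjugate and 1016 to 1522 FPKM with vehicle (3 of 5 fell, none at 0, exact permutation p = 0.0079). Adipocyte genes summed 15.3 to 26.7 against 25.03 to 47.5 FPKM (0 of 3 passed, Lep at 0, exact permutation p = 0.016). The mammary list summed 126 to 182 against 210.2 to 314 FPKM (2 of 2 fell, Krt14, Krt5 and Lalba at 0, exact permutation p = 0.0079). Only these 2 of its 8 markers could be tested, so it is no measure of mammary cells here. All 3 p-values were 0.12 after adjustment, and the part of these lists in the result was not tested.

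In Glp1rWnt1-/- liver no member was called against vehicle by limma, nor was any of 10858 genes; 1048 genes had an unadjusted p under 0.05. The members' median was -0.089, beside -0.038 for all genes, and 29 of 31 estimates were negative. So were 26 of 27 nuclear subunits of oxidative phosphorylation, 26 of 28 PPAR-alpha targets and 14 of 17 citric acid cycle genes. Of the regulators 11 of 21 were negative. The share of negative estimates over all genes was not counted, so the sign count is no result about the members. Crat measured 11.5, 16.05, 16.3, 14.4 and 19.5 FPKM, all below the lowest vehicle library, as in 1.72% of all genes (-0.49 ± 0.15 SE, adjusted p = 0.28). Cpt1a (-0.14 ± 0.067), Acaa1b (-0.11 ± 0.20), Pex11a (-0.18 ± 0.14) and Bdh1 (-0.25 ± 0.094) overlapped with vehicle, with adjusted p-values of 0.54, 0.9, 0.72 and 0.38. None of 36 other oxidation genes, 28 PPAR-alpha targets or 21 regulators was called.

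The difference between the knockout effects of the lines was tested directly over 30 liver libraries. It passed for 3 members, each lowered more in GiprSyn-/- than in Glp1rWnt1-/- mice: Crat (-1.43 ± 0.21 SE, adjusted p = 0.00057), Acat1 (-0.42 ± 0.094 SE, adjusted p = 0.028) and Acadm (-0.40 ± 0.087 SE, adjusted p = 0.025), where 0.546% of 11549 genes were lower and 0.113% higher. The estimates of Pex11a (-0.93 ± 0.24) and Acaa1b (-1.004 ± 0.33) were larger than those of Acat1 and Acadm but did not pass (adjusted p = 0.066 and 0.21). Crat alone was called after median-of-ratios scaling and in all 30 fits with 1 library left out. The count was 1 without replicate 1 of the Glp1r line's vehicle group, replicate 3 or 5 of its knockout group, replicate 4 of the Gipr line's vehicle group or replicate 2 of its knockout group. It was 5 without conjugate replicate 1 or 3 of the Gipr line, 6 without its vehicle replicate 1 or knockout replicate 3, and 8 without knockout replicate 1 of the Glp1r line. No member passed for the conjugate effects (limma; 660 of 11549 genes at an unadjusted p under 0.05, none called). Line, receptor and driver differ together between these groups and cannot be told apart.

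In inguinal fat of the Gipr line, Acsl1, the carrier Slc25a20 and the peroxisomal importer Abcd3 fell both with the conjugate and in the knockout, which share their vehicle libraries. In the knockout none of these 3 stayed called with the B cell level as a term or without the libraries rich in B cell genes. With the conjugate only Acsl1 stayed called with that term, and all 3 did without those libraries. The conjugate lowered 5 of 31 members and raised none, where 2.76% of 13604 genes were lower and 4.26% higher (limma). Acsl1 measured 752, 778, 662, 659.6 and 695 FPKM with vehicle and 385, 491, 492, 395 and 377 FPKM with the conjugate, without overlap (-0.73 ± 0.16 SE, adjusted p = 0.018). Abcd3 measured 38.1, 44.2, 35.5, 39.9 and 37.1 FPKM with vehicle and 22.3, 28.3, 26.6, 30.1 and 24.3 FPKM with the conjugate (-0.55 ± 0.14 SE, adjusted p = 0.03). Slc25a20 measured 51.6, 46.2, 51.5, 49.3 and 53.5 FPKM with vehicle and 29.99, 34.3, 39.3, 35.7 and 45.5 FPKM with the conjugate (-0.45 ± 0.12 SE, adjusted p = 0.042). All conjugate libraries of the 3 genes were below the vehicle libraries. Etfdh measured 66.02, 70.4, 68.1, 73.4 and 64.1 against 39.6, 50.5, 52.3, 53.2 and 50.6 FPKM (-0.47 ± 0.13 SE, adjusted p = 0.046), and Hadha 72.3, 71.6, 71.8, 71.3 and 61.9 against 53.7, 52.2, 54.4, 60.3 and 59.05 FPKM (-0.31 ± 0.087 SE, adjusted p = 0.044). They did not overlap either; in all, 11 members had every conjugate library below vehicle, as had 4.06% of all genes. Median-of-ratios scaling called 6 members and split the called genes into 492 lower and 262 higher, from 376 and 579.

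The Syn knockout also lowered 5 members and raised none in this fat, where 5.67% of all genes were lower and 6.61% higher, and 4 of the 5 belonged to activation and the shuttle. Cpt1b, the muscle and fat form of the carnitine acyltransferase, measured 2.75, 2.28, 3.25, 3.10 and 2.69 FPKM with vehicle and 0.879, 1.38, 1.78, 1.10 and 0.784 FPKM in the knockout (-0.82 ± 0.13 SE, adjusted p = 0.0032). Cpt1a measured 52.4, 55.7, 52.8, 57.1 and 54.2 FPKM with vehicle and 39.6, 35.4, 42.2, 43.2 and 33.8 FPKM in the knockout (-0.48 ± 0.088 SE, adjusted p = 0.005). Acsl1 measured 392, 459, 498, 585 and 286 FPKM in the knockout (-0.71 ± 0.16 SE, adjusted p = 0.014). In these 3 no knockout library reached the vehicle range, as in 4.73% of all genes. Slc25a20 at 32.9, 40.01, 42.004, 46.4 and 30.2 FPKM (-0.40 ± 0.12 SE, adjusted p = 0.047) and Abcd3 at 28.8, 25.9, 29.4, 39.6 and 20.3 FPKM (-0.45 ± 0.14 SE, adjusted p = 0.048) each had 1 knockout library within it. Against this direction in its step, Crat measured 63.8, 79.4, 71.2, 77.1 and 54.7 FPKM in the knockout and 62.03, 56.9, 65.8, 59.9 and 53.98 FPKM with vehicle, with overlap (0.20 ± 0.11 SE, adjusted p = 0.21). No member differed between conjugate and knockout (limma; 1 of 13604 genes called, higher, or 0.00735%, and 770 at an unadjusted p under 0.05), a comparison whose groups both changed against the same vehicle libraries; for Acsl1 that difference was -0.022 ± 0.16 SE and for Cpt1b 0.37 ± 0.13 SE.

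**Figure D4:**
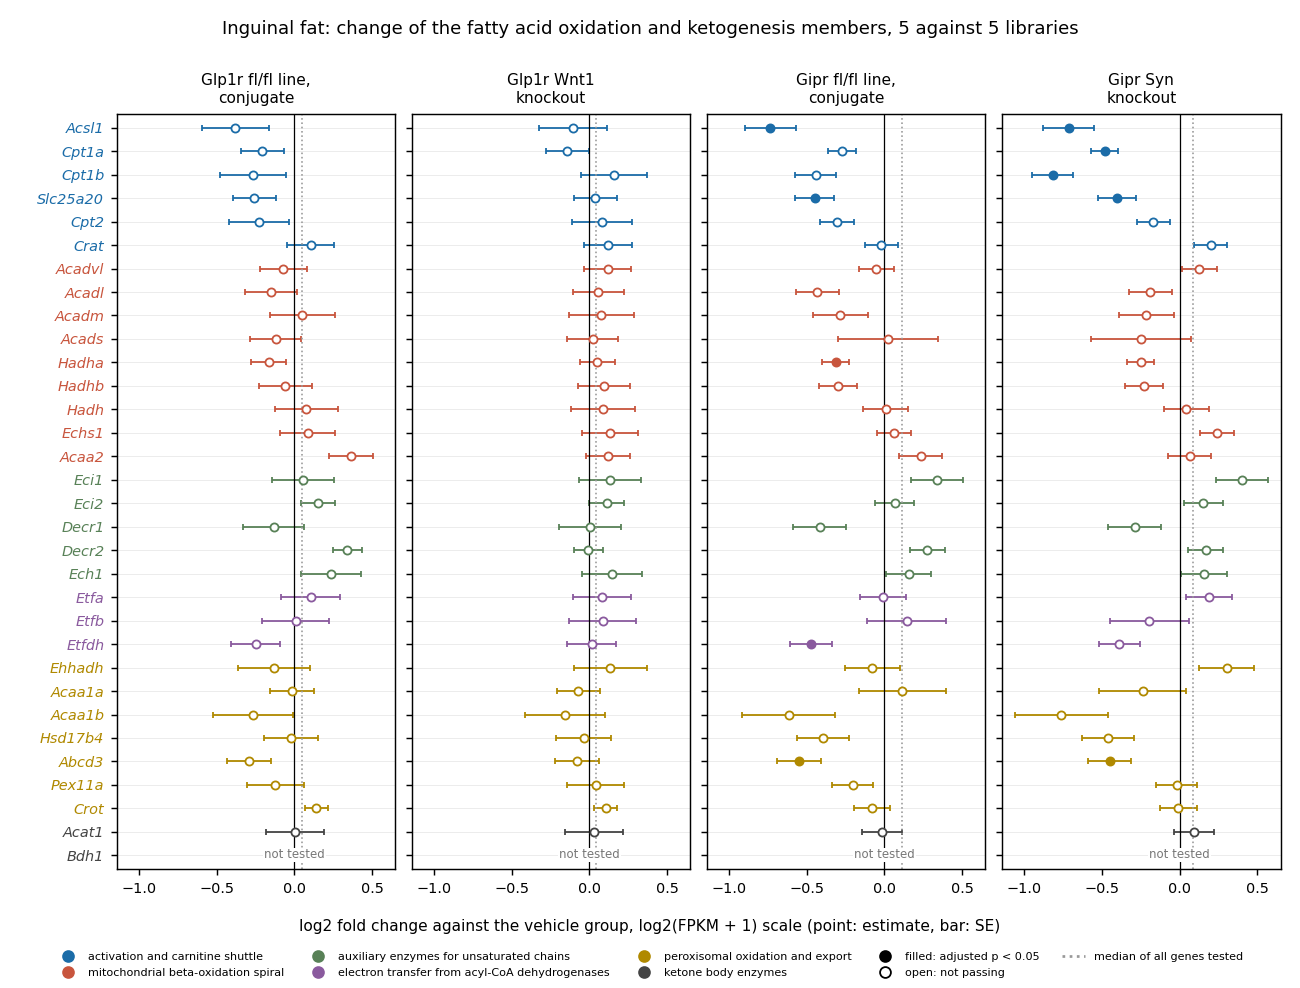
Log2 fold change of each member in inguinal fat against the vehicle group of its line (x axis, log2(FPKM + 1) scale; bars, SE; 5 against 5 libraries), grouped and coloured by step. Filled points passed an adjusted p under 0.05: 5 of 31 with the conjugate and 5 of 31 in the Syn knockout of the Gipr line, and none in the Glp1r line.

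These fat results moved with single libraries. With 1 library left out, 1 to 7 members were called with the conjugate: 1 without conjugate replicate 1, 3 or 5 or vehicle replicate 1, 2 or 4, 2 without conjugate replicate 2 or 4, vehicle replicate 3 or 5 or knockout replicate 2, and 3 without knockout replicate 1. In the knockout comparison median-of-ratios scaling called 6 and split all called genes into 1023 lower and 571 higher, from 771 and 899. With 1 library left out 3 to 7 were called, 3 being the count without conjugate replicate 2, 3 or 4, vehicle replicate 1, 3, 4 or 5, or knockout replicate 1, 2 or 5; Acsl1, Cpt1a and Cpt1b were called in all 15 fits. B cell genes summed 103 to 728 FPKM in the knockout, 23.8 to 632 FPKM with the conjugate and 9.17 to 208 FPKM with vehicle (5 of 9 markers rose in the knockout and 0 of 9 with the conjugate, none at 0), with exact permutation p = 0.032 and 0.12 (adjusted 0.31 and 0.49). With the B cell level as a term Cpt1b alone stayed lower in the knockout, and with the conjugate Acsl1 was lower and Decr2 and Acaa2 were higher. T cell genes summed 36.6 to 243 FPKM in the knockout against 8.15 to 103 FPKM (0 of 6 passed), and Schwann cell genes 199.5 to 349 FPKM in the knockout and 211 to 372 FPKM with the conjugate against 152 to 207 FPKM (5 and 6 of 8 rose; exact permutation p = 0.0079 for each, adjusted 0.21), none of them at 0. In the knockout hepatocyte genes summed 308 to 559 against 23.5 to 238 FPKM (1 of 3 rose, none at 0) and pancreatic acinar genes 10.4 to 36.9 against 49.9 to 69.9 FPKM (1 of 1 fell, 5 of 11 at 0: Cela2a, Cela3b, Pnlip, Clps and Try4). Brown and beige adipocyte genes had a lower mean log2(FPKM + 1) in the knockout (2.16 against 2.41; 1 of 6 fell and 1 rose; exact permutation p = 0.04, adjusted 0.34), and with the conjugate it was 2.19 (1 of 6 fell; exact permutation p = 0.079); their sums overlapped, at 45.9 to 142 FPKM in the knockout, 45.6 to 104 FPKM with the conjugate and 48.4 to 94.3 FPKM with vehicle, none at 0. Skeletal muscle genes were uneven too. They summed 35.1 to 225 FPKM in the knockout, 42.3 to 1646 FPKM with the conjugate and 52.1 to 661 FPKM with vehicle. Their mean log2(FPKM + 1) was 2.78, 4.99 and 3.95 in that order. Against vehicle 0 of 10 passed in either group, none at 0 (exact permutation p = 0.21 for the knockout and 0.29 for the conjugate). Beyond fits with a marker level as a term, the part of these lists in the result, that of Cpt1b included, was not tested.

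In fat of the Glp1r line no member passed in any of the 3 comparisons (limma, 12686 genes; 430, 0 and 17 genes called for conjugate against vehicle, knockout against vehicle and conjugate against knockout; 2276, 593 and 1332 at an unadjusted p under 0.05). The shares of genes lower and higher were 1.08% and 2.31% for the conjugate against vehicle, and 0.00788% and 0.126% against the knockout. Acsl1 shows the spread behind this: it measured 864, 511, 1041, 955 and 967 FPKM with vehicle, 706, 894, 706, 563 and 453 FPKM with the conjugate and 611, 936, 706, 930.4 and 780.1 FPKM in the knockout. The lowest vehicle value came from replicate 2, a library rich in B cell genes, and the lowest conjugate value from replicate 5, with the highest macrophage level of the table. Averaged over the members, log2(FPKM + 1) was 5.84 in vehicle replicate 2, 6.16 and 6.27 in the other B cell-rich libraries, 6.07 in conjugate replicate 5, and 6.39 to 6.68 in the remaining 11. Without vehicle replicate 2 the conjugate called 3 members lower (Etfdh, Abcd3 and Slc25a20) and none higher, beside 428 of 12560 genes lower (3.41%) and 659 higher. Without conjugate replicate 5 it called Cpt1a lower and Decr2 higher, beside 176 of 12586 genes lower (1.4%) and 566 higher. Brown and beige adipocyte genes summed 23.2 to 74.7 FPKM with the conjugate and 47.99 to 123 FPKM with vehicle (1 of 4 fell, none at 0; exact permutation p = 0.024, adjusted 0.31), and their part in these values was not tested.

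When the 6 libraries rich in B cell genes were left out, a choice made after these values were seen, the conjugate called 7 members in each line, and 6 were the same with the same direction (6 of 7 in either line). The conjugate and vehicle groups then held 5 and 4 libraries in the Glp1r line, and 4 and 5 in the Gipr line. In the Glp1r line this removed the vehicle library with the lowest member average (5.84). The lowest conjugate library, replicate 5 (6.07), was kept, so the removal was one-sided. In the Gipr line it removed the lowest conjugate library, replicate 1 (5.96). How far these removals moved the estimates was not tested. The log2 fold changes in the Glp1r and the Gipr line were -0.56 and -0.70 for Acsl1, -0.38 and -0.38 for Slc25a20, -0.26 and -0.30 for Hadha, -0.40 and -0.40 for Etfdh, and for Abcd3 -0.43 and -0.49. Decr2, which acts on double bonds in peroxisomes, was higher by 0.30 and 0.32 (adjusted p = 0.017 and 0.029). In the full set Decr2 measured 11.03, 8.63, 9.63, 10.3 and 9.96 FPKM with vehicle and 14.2, 12.3, 13.3, 13.2 and 11.1 FPKM with the conjugate in the Glp1r line, and 11.8, 10.6, 11.99, 11.1 and 10.5 FPKM against 12.01, 13.7, 13.9, 15.1 and 14.1 FPKM in the Gipr line. In both lines its groups did not overlap, as in 3.2% of genes in the Glp1r line and 7.51% in the Gipr line, although it did not pass (adjusted p = 0.062 and 0.15). The background of these fits was 5.93% of genes lower and 15.1% higher in the Glp1r line, and 2.8% lower and 4.19% higher in the Gipr line. The lines share no library. How many of all genes were called in both lines in the same direction was not counted, so the 6 shared members have no background. In the Syn knockout the same exclusion left 3 libraries and called 5 members, with Cpt1a (-0.43) and Cpt1b (-0.66) lower and Ehhadh (0.57), Echs1 (0.40) and Decr2 (0.35) higher, beside 2.8% of genes lower and 2.89% higher. In the Wnt1 knockout it called none (limma; 0 of 12394 genes called, 1810 at an unadjusted p under 0.05), and between conjugate and knockout of the Glp1r line it called Hadha (-0.36) and Slc25a20 (-0.44) lower, beside 0.976% of genes lower and 1.59% higher.

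**Figure D5:**
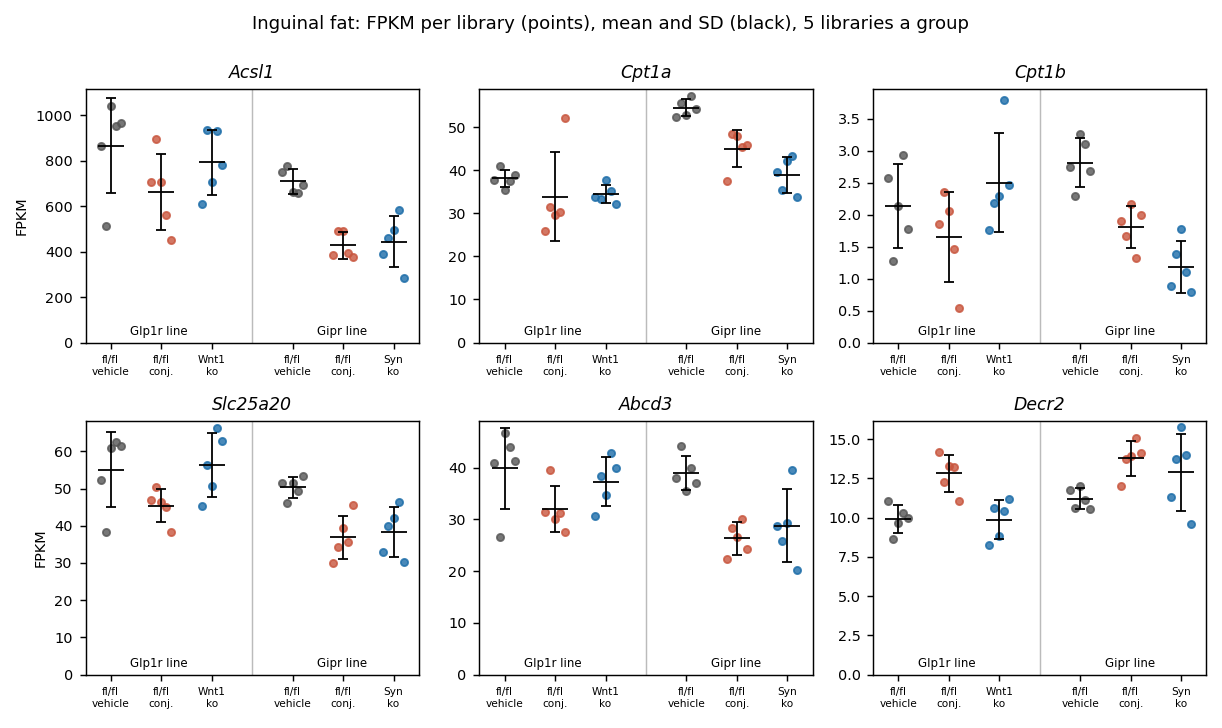
FPKM in each inguinal fat library (points; y axis from 0), with mean and SD in black, for 6 members in the 3 groups of each line (x axis; conj., conjugate; ko, knockout given vehicle). For Acsl1 in the Gipr line the conjugate points (377 to 492 FPKM) lie below the vehicle points (659.6 to 778 FPKM), while in the Glp1r line the groups overlap.

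The ketone body members were not called in fat: Acat1 had estimates of -0.016 ± 0.13 with the conjugate and 0.093 ± 0.13 in the knockout of the Gipr line, and Bdh1 was too low to test. Of 35 other oxidation and ketogenesis genes in Gipr-line fat, 2 fell and 3 rose with the conjugate, and 2 fell and 3 rose in the knockout. Among them the monocarboxylate carrier gene Slc16a1 fell with the conjugate in both lines (-0.69 ± 0.10 SE, adjusted p = 0.0019 in the Gipr line, -0.55 ± 0.14 SE, adjusted p = 0.046 in the Glp1r line). Of 22 PPAR-alpha targets outside the members tested in Gipr-line fat, 2 fell and 4 rose with the conjugate, and 4 fell and 2 rose in the knockout. Of 20 tested in Glp1r-line fat, 0 fell and 2 rose with the conjugate. Among them Vnn1 rose with the conjugate (1.41 in the Gipr line and 1.38 in the Glp1r line). Plin2, a lipid droplet protein gene, fell with the conjugate in the Gipr line (-0.83). Ppargc1a rose in GiprSyn-/- fat (0.61, adjusted p = 0.031), while Ppara (0.094), Pdk4 (0.15), Fgf21 (-0.47) and Mlycd (0.089) did not pass there.

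Differences between the lines in fat were tested over 30 libraries and passed for no member, either for the conjugate effect (limma; 0 of 14156 genes called, 554 at an unadjusted p under 0.05) or for the knockout effect (limma; 2 of 14156 genes lower and 2 higher, 0.0141% each, 1487 at an unadjusted p under 0.05). For Cpt1b the difference of knockout effects was -0.98 ± 0.26 SE (adjusted p = 0.12), and for Acsl1 -0.61 ± 0.27 SE (adjusted p = 0.43). A result that passed in one line and not in the other is thus not shown to differ between them.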

How the data were processed

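Poly(A) RNA of 60 mouse samples was made into stranded libraries and sequenced on a NovaSeq X, per the labels' protocols. The authors deposited 4 tables of FPKM values, made with RSEM per the submitters' processing notes. Of the version, aligner, genome build and annotation, nothing is given in the sources used here. No counts are in these tables, so no count test was run. Members and lists were chosen with earlier results of these data known.

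Genes with at least 5 of 15 libraries at 1 FPKM or more (of 30 across lines) were tested on log2(FPKM + 1) with limma 3.58.1 in R 4.3.3 (3 group means per table, moderated two-sided test with intensity trend, Benjamini-Hochberg over all genes tested, called at an adjusted p under 0.05). Fold changes on this scale understate those of low genes. FPKM is relative to all other genes, so a shift of many genes moves each. Depth was estimated from the steps of low FPKM values of genes with 1 transcript and limits the precision of low genes. Marker lists were averaged per library and compared by two-sided exact permutation over 5 against 5 libraries, which cannot go below p = 0.00794, with adjustment over the lists and comparisons of a tissue.

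Values per library are given for up to 6 called members per comparison in order of absolute log2 fold change and for members against the direction of their step. Of each other list up to 4 called genes with the largest changes are named, and always Ppara, Ppargc1a, Fgf21, Pdk4 and Mlycd; some genes the rule names are not reported here. Members described by library without being called, and the promoters shown, were picked after their values were seen. The labels' replicate numbers were not blocked. Same-numbered libraries deviated together in all 5 pairs in Gipr-line fat, conjugate against knockout (correlations 0.331 to 0.707), where a block changed no member's call; the pairing there comes from this check only. No libraries were near-duplicates (highest correlation 0.995). Alternatives were pseudocount, filter, scaling, block, library number series, 2-group fits, single libraries left out, and terms or exclusions for depth, GC slope and marker levels, the last chosen after seeing the data. The number series, from 20386 on, was uneven across groups. In Gipr-line liver it held conjugate replicates 4 and 5 and vehicle replicate 5. In Gipr-line fat it held replicate 5 of the conjugate and knockout groups and no vehicle library. There the series and the group are partly confounded. The test was checked on simulated data. Sequences were read with Python 3.11.15 from RefSeq promoters (GRCm38.p6) and GENCODE vM21 transcripts (GRCm38); coding bases stand in for the planned protein pair.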

Additional observations from a re-analysis of the deposited data

Results flagged for a closer look

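In 31 of 384 groups of 5 values (8.07%; chance gives about 5%), 1 library lay far from the other 4 of its group for a member. Glp1r fl/fl vehicle fat replicate 2, rich in B cell genes, was lowest for 8 members: Crat (41.2 FPKM), Acadm (169), Hadhb (114), Etfdh (41.1), Ehhadh (10.6), Hsd17b4 (96.1), Abcd3 (26.6) and Pex11a (12.02). Conjugate replicate 5 of that fat table was highest for Cpt1a (52.0 FPKM) and lowest for Acadm (210.5), Hadh (152), Eci1 (57.3), Ech1 (268), Acaa1a (58.5), Pex11a (11.9) and Acat1 (47.0). Gipr fl/fl conjugate fat replicate 1, also rich in B cell genes, was lowest for Cpt1a (37.6 FPKM), Etfdh (39.6) and Hsd17b4 (82.8) and highest for Bdh1 (2.79). In Gipr-line fat, Crat was high in conjugate replicate 4 (69.5 FPKM), Eci1 was high in conjugate replicate 5 (126), and Hadha was low in vehicle replicate 5 (61.9) and knockout replicate 5 (47.5).

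In Glp1r-line liver, knockout replicate 1 was lowest for Eci1 (102 FPKM) and Decr2 (79.7), conjugate replicate 3 for Slc25a20 (58.7), vehicle replicate 1 for Hsd17b4 (173) and vehicle replicate 2 for Acsl1 (218), while vehicle replicate 5 was highest for Cpt1b (0.976). In Gipr-line liver, conjugate replicate 1 was highest for Abcd3 (249 FPKM).

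The liver knockout effect differed between the lines for 3 members by the test of the difference itself (limma): Crat by -1.43 (adjusted p = 0.00057), Acat1 by -0.42 (adjusted p = 0.028) and Acadm by -0.40 (adjusted p = 0.025), each lower in the Gipr line.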

How the results depend on the processing

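No called member changed sign under any alternative run. In GiprSyn-/- liver the count of 21 members stayed between 18 and 25 except under median-of-ratios scaling (10), which moved the 3 members that differed in the knockout effect between lines to 1; that count was 5 with a minimum of 5 FPKM, 6 after rescaling to a common sum, 6 with the replicate block and 1 to 8 with 1 library left out. For the conjugate in Gipr-line liver, 5 members became 0 after median-of-ratios scaling, 2 with a fit of only 2 groups and 3 with depth as a term (1 to 7 with 1 library left out); against the knockout, 3 became 1 after median-of-ratios scaling, 8 after rescaling, 1 with 2 groups and 6 without the library of steep GC decline (2 to 6). For the conjugate in Glp1r-line liver, 5 became 2 without a filter, 8 with a minimum of 5 FPKM, 8 with the replicate block, 8 with GC slope and 0 with depth as a term (2 to 7); against the knockout, 2 became 1 with 2 groups and 0 with depth (1 to 2).

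For the conjugate in Gipr-line fat, 5 became 1 without a filter, 2 with the library number series, 9 with 2 groups, 3 each with GC slope, depth or B cell level as a term, 3 without libraries of steep GC decline and 2 with a muscle term (1 to 7); in the knockout, 5 became 3 without a filter, 2 with a minimum of 5 FPKM, 3 each with number series, 2 groups, depth or muscle level, 8 with GC slope and 1 with B cell level (3 to 7). In Glp1r-line fat, 0 became 1 after rescaling and 7 with B cell level as a term or its rich libraries left out (0 to 3) for the conjugate, and 13 and 2 against the knockout. The total of all genes called moved too: from 1126 to 617 without a filter and 0 with depth (conjugate, Glp1r-line liver), from 1160 to 732 and 1967 under the 2 scalings (GiprSyn-/- liver), and from 1670 to 261 with B cell level (GiprSyn-/- fat). The causes were not tested. The replicate block gave 19 members in GiprSyn-/- liver, 6 and 5 in Gipr-line fat for conjugate and knockout, and 4 for the conjugate in Gipr-line liver; elsewhere the numbers are not shown to pair libraries. FPKM without counts, and 5 libraries a group, limit what small changes can show.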

Other observations

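In Gipr fl/fl conjugate liver, Acads measured 34.5, 77.4, 67.9, 83.4 and 92.2 FPKM and Acaa1a 49.6, 110.4, 99.1, 145 and 138 FPKM, listed from replicate 1 to 5. Replicate 1, lowest for both, had the steepest decline of FPKM with GC content of all 60 libraries. In Gipr-line fat, Acads measured 68.2, 32.9, 77.4, 41.7 and 72.4 FPKM with vehicle and 27.1, 74.7, 64.8, 27.95 and 59.3 FPKM in the knockout, the libraries with a steep GC decline (vehicle 2, knockout 1 and 4) being the 3 lowest of the 15.

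The untested members were Cpt1b in liver, at 0.407, 0.282, 0.588, 0.721 and 0.802 FPKM with vehicle and 0.457, 0.0991, 0.145, 0.156 and 0.246 FPKM in GiprSyn-/- mice, and Bdh1 in fat, at 0.365, 0.868, 0.405, 0.149 and 0.0984 FPKM with vehicle and 1.87, 0.502, 0.627, 0.376 and 2.06 FPKM in GiprSyn-/- mice.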
